A study of Mus musculus with 11 samples.

Results

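The GIMAP genes encode a family of GTP-binding proteins, the GTPases of immunity-associated proteins, which are made mainly in lymphocytes. The array held 8 of them in the mouse, Gimap1, Gimap3, Gimap4, Gimap5, Gimap6, Gimap7, Gimap8 and Gimap9, each on 1 probe set that the platform annotation gives that single gene symbol. They are 8 of 19938 genes with such a probe set, and 8 of 28939 probe sets analysed. The family was chosen because Gimap7 is lower in Dnmt3b-deficient than in wild-type thymic lymphomas. That contrast is therefore described here for all 8 genes without a test.

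RNA came from the thymus of FVB mice in 4 groups, and all groups carried EμSR-tTA, a tetracycline-controlled activator made in blood cells, and the Rosa26LOXPEGFP reporter. Normal thymocytes (n = 3, taken at 24 days) also carried Teto-Cre, had Dnmt3b+/+ and lacked a MYC transgene. Wild-type lymphomas (n = 3) carried Teto-MYC, which makes the oncoprotein MYC under the activator, and Dnmt3bF/F without a Cre transgene. Dnmt3b-deficient lymphomas (n = 3) carried Teto-MYC and Teto-Cre and are labelled Dnmt3b-/-. Pre-tumor thymocytes (n = 2) had that same genotype and were taken at 24 days. Dnmt3b is an enzyme that places methyl groups on DNA, and the study compared MYC-driven thymic lymphomas with and without it. EGFP-positive cells were sorted from pre-tumor thymi, while tumors were not sorted. The labels leave unclear whether normal thymi were. In the tumors, Cre and the loss of Dnmt3b come together. Normal thymocytes differ from both lymphoma groups in MYC, in stage, in the time of harvest and perhaps in sorting. They also differ from Dnmt3b-deficient lymphomas in Dnmt3b, and from wild-type lymphomas in Cre and in having Dnmt3b+/+ in place of Dnmt3bF/F. Within each comparison these cannot be told apart. Pre-tumor thymocytes differ from tumors of their genotype in stage, in sorting and in the time of harvest. They differ from normal thymocytes in MYC, in Dnmt3b and perhaps in sorting. These cannot be told apart either.

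GIMAP proteins sit on intracellular membranes, among them those of mitochondria, lysosomes and the endoplasmic reticulum, and are known for their part in the survival of T and B lymphocytes. In rodents, loss of Gimap5 causes T cell lymphopenia, and loss of Gimap1 depletes mature lymphocytes. The genes lie next to each other in a single cluster on mouse chromosome 6. Levels of the family change as T cells mature in the thymus, which is why a change in the mixture of cells can also change a bulk signal.

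The values are log2 signals, in which 1 unit is a doubling, with a floor of 3.32 below which nothing can be read. No GIMAP value lay at that floor in any of the 11 samples. Arrays of a group correlated with r between 0.973 and 0.991 over all probe sets. The probe set of Dnmt3b itself, the targeted gene, lay between 5.07 and 5.70 in all samples. It differed by -0.17 (SE 0.10) between Dnmt3b-deficient and wild-type lymphomas, which limma did not call (adjusted p = 0.899), so that it did not check the genotype labels. Its position relative to the deleted part is not stated. Markers of the T lineage were present in every sample, with a list mean over 8 genes between 7.88 and 9.98.

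Gimap7 encodes a GTPase whose pairing with itself or another GIMAP protein switches on GTP hydrolysis. Its log2 signal was 5.65, 5.69 and 5.69 in wild-type lymphomas and 3.80, 4.32 and 4.41 in Dnmt3b-deficient lymphomas. The groups did not overlap, and the highest Dnmt3b-deficient sample lay more than 1 unit below the lowest wild-type one. The means were 5.68 ± 0.02 (SD, n = 3) and 4.17 ± 0.33 (SD, n = 3), a difference of -1.50. In normal thymocytes the gene lay at 5.58, 5.33 and 5.27, and in pre-tumor thymocytes at 4.93 and 4.81. The order of the group means was thus wild-type lymphoma, normal, pre-tumor and Dnmt3b-deficient lymphoma, and no neighbours in this order overlapped. These levels chose the gene and are a description.

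Gimap8, the longest protein of the family, with several GTP-binding domains in a row, lay next lowest by difference among the genes whose samples did not overlap. It was at 6.46, 6.31 and 6.25 in wild-type lymphomas and at 5.55, 5.19 and 5.29 in Dnmt3b-deficient lymphomas, a difference of -1.0. Normal thymocytes gave 6.07, 6.07 and 6.70 and pre-tumor thymocytes 6.07 and 5.93, so that the samples outside the Dnmt3b-deficient lymphomas overlapped with each other. Only the Dnmt3b-deficient lymphomas lay below all 8 other samples. Repeated values of this kind occurred in 37.6% of the 24171 probe sets with any value above the floor.

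Gimap9 was at 8.31, 8.33 and 8.39 in wild-type lymphomas and at 7.38, 8.12 and 7.67 in Dnmt3b-deficient lymphomas, a difference of -0.62. The groups were separate, but the second Dnmt3b-deficient sample came close to the wild-type ones. Gimap9 was at 8.49, 8.30 and 8.64 in normal and 8.0 and 8.23 in pre-tumor thymocytes. The highest Dnmt3b-deficient sample lay inside the pre-tumor range.

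Gimap5, a GTPase of lysosomes whose loss is known to shorten the life of T cells,, was the last gene without overlap. It was at 5.09, 5.03 and 4.97 in wild-type lymphomas and at 3.89, 4.80 and 4.75 in Dnmt3b-deficient lymphomas. The difference of -0.55 rested largely on the first replicate, and it was -0.26 without it. Gimap5 was at 4.74, 4.66 and 4.47 in normal and 4.81 and 4.80 in pre-tumor thymocytes. Wild-type lymphomas lay above all 8 other samples.

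Samples of the lymphoma groups overlapped for the other 4 genes. Gimap6, which is known to bind the autophagy protein Gabarapl2, was at 7.81, 8.41 and 8.41 in the wild-type lymphomas, against 6.45, 7.97 and 7.19 in the Dnmt3b-deficient ones, a difference of -1.01 and of -0.63 without the first Dnmt3b-deficient replicate. Its highest Dnmt3b-deficient sample lay above its lowest wild-type one. Normal thymocytes were at 9.02, 9.09 and 9.20 and pre-tumor thymocytes at 8.42 and 8.47, and the 3 normal samples lay above all others.

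Gimap1, a GTPase that mature T and B cells require, had its highest level in normal thymocytes as well. Normal samples gave 8.57, 8.70 and 8.73, above the 8 other samples. Pre-tumor thymocytes gave 7.14 and 7.61, wild-type lymphomas 7.59, 7.35 and 7.54, and Dnmt3b-deficient lymphomas 6.02, 7.23 and 7.71. The lymphoma groups differed by -0.50, and by -0.02 without the first Dnmt3b-deficient replicate. The highest of all lymphoma values of Gimap1 came from a Dnmt3b-deficient tumor.

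Gimap3 is a close relative of Gimap5 found at mitochondria and other membranes. It was at 6.30, 6.96 and 5.72 in the wild-type lymphomas, against 4.74, 6.03 and 5.93 in the Dnmt3b-deficient ones, a difference of -0.76 and of -0.35 without the first Dnmt3b-deficient replicate. Normal thymocytes lay at 6.33, 6.14 and 6.02 and pre-tumor thymocytes at 7.10 and 6.74. The highest value of Gimap3 came from a pre-tumor sample.

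Gimap4, a GTPase linked to the pace of T cell death, spread most within the lymphoma groups. It was at 9.82, 9.77 and 7.24 in the wild-type lymphomas, against 6.67, 8.94 and 8.36 in the Dnmt3b-deficient ones. The difference was -0.95, it was -0.29 without the first Dnmt3b-deficient replicate, and it was -1.80 without wild-type replicate 3. Each group held a sample well below its others. Normal thymocytes lay at 8.42, 8.02 and 8.59 and pre-tumor thymocytes at 8.95 and 8.99. Myeloid markers differed between the same lymphomas. Over 7 neutrophil genes, the wild-type lymphomas had means of 6.71, 6.57 and 4.22 against 4.03, 6.04 and 4.38 in the Dnmt3b-deficient ones, and 8 macrophage genes gave 5.80, 6.46 and 4.75 against 4.55, 5.21 and 4.39. The 3 lymphomas with the highest neutrophil means were those with the highest Gimap4, whereas pre-tumor thymocytes joined neutrophil means of 4.08 and 4.01 to Gimap4 values of 8.95 and 8.99. None of the 7 neutrophil genes was at the floor on every array, and the part of such cells in the signal was not tested.

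**Figure D1:**
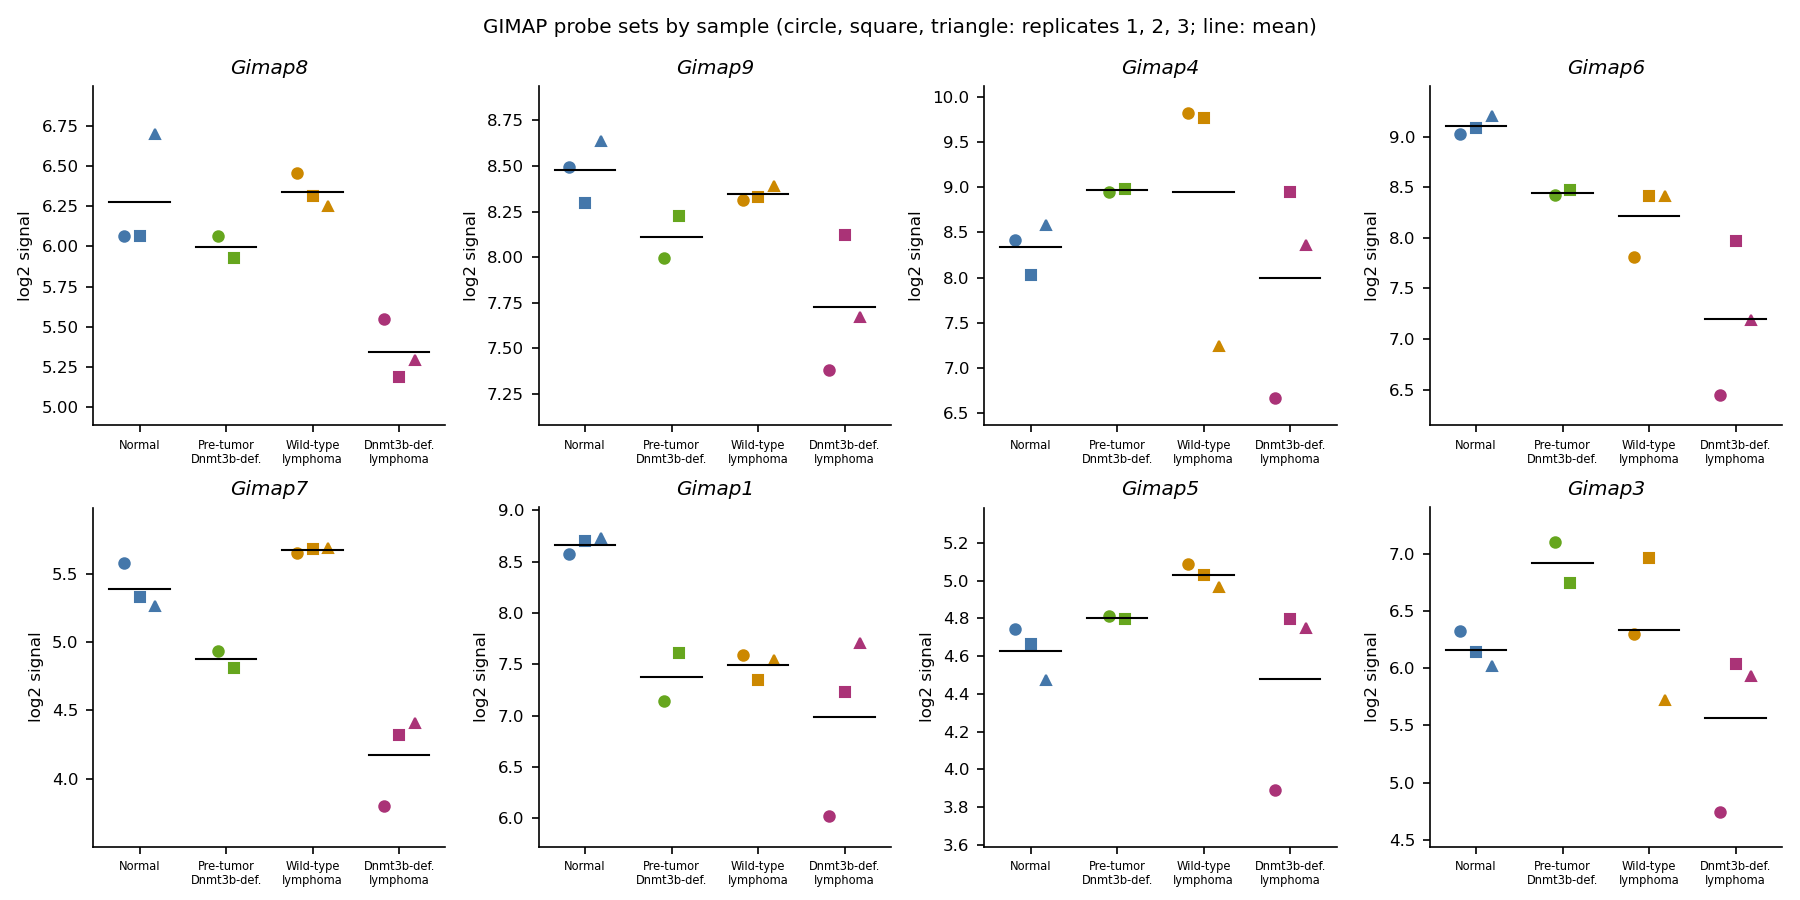
Log2 signal of the 8 GIMAP probe sets in every sample, 1 panel per gene in the order of the genes on the chromosome, with circles, squares and triangles for replicates 1, 2 and 3 and a line at each group mean. The 3 Dnmt3b-deficient lymphomas lie below the 3 wild-type lymphomas for Gimap5, Gimap7, Gimap8 and Gimap9, and the first Dnmt3b-deficient replicate is the lowest of all 11 samples in every panel but that of Gimap8.

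Across the family, the difference between Dnmt3b-deficient and wild-type lymphomas was negative for 8 of 8 genes, with a median of -0.86, beside a median of 0.00 over all probe sets. All 3 Dnmt3b-deficient samples lay below all 3 wild-type samples for 4 of 8 genes, and the same held for 3.34% of all probe sets. Since the rule used this contrast, nothing is read from these counts. The first Dnmt3b-deficient replicate was the lowest of the 11 samples for 7 of 8 genes, and for 9.93% of the 20038 probe sets above the floor throughout. Without it the 8 differences stayed negative and their median was -0.40. This sample also had the lowest mean of the 8 T-lineage markers, at 7.88, and was the lowest of 11 for 4 of those 8. The T-lineage means of the other Dnmt3b-deficient lymphomas were 8.29 and 8.54, and those of the wild-type lymphomas 8.71, 8.62 and 8.91. The lymphoma groups thus did not overlap in this mean either, and its part in the GIMAP differences was not tested. The markers did not move alike. Their differences between the lymphoma groups ran from -1.76 (Cd2) to 0.09 (Cd3e), with a median of -0.29 and 7 of 8 below 0. Thy1 in the first Dnmt3b-deficient replicate, at 9.43, was the highest lymphoma value of that gene. In bulk RNA, fewer cells of a type and less RNA per cell cannot be told apart.

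DNA methylation was not measured here, but Dnmt3b acts on the sequence CG, and the stretches just before the gene starts are where such sites bear on a promoter. Shown are the 250 bases upstream of Gimap7, on which the family was chosen, and of Gimap8, Gimap9, Gimap6 and Gimap1, the genes called against normal thymocytes below, with each CG in capitals. They are from RefSeq, build GRCm38.p6, in the order chr6:48646984-48647233, chr6:48675885-48676134, chr6:48708245-48708494, chr6:48718371-48718620 and chr6:48738797-48739046. That of Gimap6 is on the minus strand and the others are on the plus strand.
Gimap8: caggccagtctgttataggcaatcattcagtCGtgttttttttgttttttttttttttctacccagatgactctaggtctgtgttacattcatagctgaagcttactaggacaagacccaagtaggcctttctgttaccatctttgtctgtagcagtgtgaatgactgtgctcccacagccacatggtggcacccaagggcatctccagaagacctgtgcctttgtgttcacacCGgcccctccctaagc
Gimap9: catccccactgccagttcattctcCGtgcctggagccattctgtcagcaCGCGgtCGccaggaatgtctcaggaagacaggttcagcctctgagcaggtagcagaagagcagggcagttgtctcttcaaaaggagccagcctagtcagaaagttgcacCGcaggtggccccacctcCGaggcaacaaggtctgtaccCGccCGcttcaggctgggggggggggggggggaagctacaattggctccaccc
Gimap6: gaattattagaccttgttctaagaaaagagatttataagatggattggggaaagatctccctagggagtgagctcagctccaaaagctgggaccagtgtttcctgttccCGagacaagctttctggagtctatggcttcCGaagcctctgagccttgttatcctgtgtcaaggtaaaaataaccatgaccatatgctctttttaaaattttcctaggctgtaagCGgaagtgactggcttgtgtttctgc
Gimap7: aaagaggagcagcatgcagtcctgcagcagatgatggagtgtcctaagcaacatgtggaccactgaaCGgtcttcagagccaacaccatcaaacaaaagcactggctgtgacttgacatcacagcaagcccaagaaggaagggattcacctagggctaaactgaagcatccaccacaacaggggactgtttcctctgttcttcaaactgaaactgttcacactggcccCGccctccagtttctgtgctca
Gimap1: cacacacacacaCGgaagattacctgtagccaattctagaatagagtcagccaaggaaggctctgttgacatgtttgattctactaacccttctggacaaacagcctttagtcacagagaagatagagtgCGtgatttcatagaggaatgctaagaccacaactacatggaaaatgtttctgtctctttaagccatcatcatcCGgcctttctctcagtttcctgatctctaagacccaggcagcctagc
Gimap7 and Gimap8 held 2 CG each, Gimap1 held 3 and Gimap9 held 8. RefSeq gave 9 such windows for the 8 genes, of which Gimap8 has 2 overlapping ones. Those of Gimap4, Gimap5 and Gimap6 held 3 CG each, and that of Gimap3 held 1. The median over 32851 windows of the same length was 6, with quartiles of 2 and 16, so that 8 of the 9 GIMAP windows lay below the median. The motif CACGTG, an E-box that MYC can bind and which reads the same on both strands, was found in 0 of the 9 windows and in 6.02% of all. The motif holds a CG itself, and a window without these letters says nothing of the factor.

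The 5 nearest protein-coding genes on each side of the cluster in the RefSeq gene table were read for comparison. Between the lymphoma groups they differed by -0.64 (Tmem176b, a membrane protein of myeloid and other immune cells) to 0.02, with a median of 0.00, against -1.50 to -0.50 for the GIMAP genes. Among the neighbours Rarres2, Gm5111, Repin1, Zfp775, Tmem176a and Gm7932 lay between -0.15 and 0.02, and Aoc1 and Doxl1 were at the floor on all arrays. Lrrc61 differed by -0.42, also without overlap (highest Dnmt3b-deficient lymphoma 5.52, lowest wild-type lymphoma 5.55). It was the neighbour that limma called in a tested comparison, and it was lower than in normal thymocytes in pre-tumor thymocytes (-1.53, adjusted p = 0.00502), in wild-type lymphomas (-1.29, adjusted p = 0.00464) and in Dnmt3b-deficient lymphomas (-1.71, adjusted p = 0.00138). Gm5111 lay at or close above the floor and Rarres2 close above it, where a fall could hardly show, as it could not for Aoc1 and Doxl1. The GIMAP differences come from the contrast that chose the family, so nothing is read from setting them beside the neighbours.

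**Figure D2:**
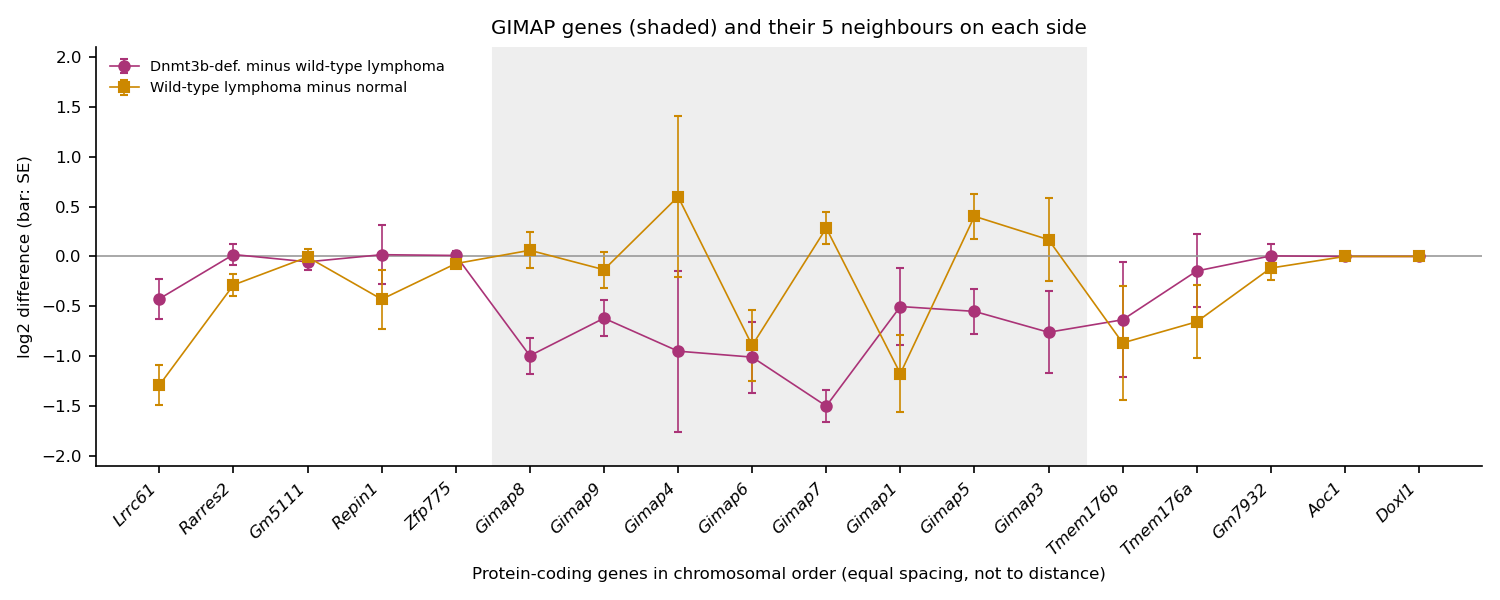
Log2 difference of each GIMAP gene (shaded) and of the 5 protein-coding genes on either side, in their order on the chromosome at equal spacing, for Dnmt3b-deficient minus wild-type lymphomas (circles) and wild-type lymphomas minus normal thymocytes (squares), with bars of 1 SE. The circles lie between -1.50 and -0.50 within the shading and between -0.64 and 0.02 outside it.

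Before tumors appeared, no GIMAP gene passed the test. Pre-tumor and normal thymocytes differ in MYC, in Dnmt3b and perhaps in sorting, which cannot be told apart. This comparison of pre-tumor with normal thymocytes takes its differences from samples that the choice of the family did not use. The lymphomas enter its p-values only through the spread shared by all 4 groups. By limma with Benjamini-Hochberg adjustment over all 28939 probe sets, 0 of 8 genes were called, beside 9.69% of all probe sets called higher and 9.88% called lower. At an unadjusted p under 0.05 there were 2 of 8, beside 31.4% of all probe sets. Gimap1 differed by -1.29 (SE 0.43, adjusted p = 0.0798) and Gimap7 by -0.52 (SE 0.18, adjusted p = 0.0832), and in both genes the pre-tumor samples lay below all normal ones. Gimap6 differed by -0.66 (SE 0.40, adjusted p = 0.325), again without overlap. Gimap8 and Gimap9 gave -0.28 and -0.37, and Gimap3, Gimap4 and Gimap5 gave 0.76, 0.63 and 0.18, with adjusted p-values from 0.278 to 0.784. The pre-tumor samples lay below all normal ones for Gimap9 and above them for Gimap3, Gimap4 and Gimap5, and Gimap8 overlapped. In the tested comparisons the share of all probe sets that separate in this way was not counted, so nothing is read from such separations. The family was split, with 5 differences below 0 and 3 above it and a median of -0.32, beside -0.02 over all probe sets. Gimap1 passed when the first Dnmt3b-deficient lymphoma was left out of the shared estimate of the spread (adjusted p = 0.00764), and Gimap7 did too (adjusted p = 0.0134), while their differences did not move. How many of all probe sets passed in that fit is not given here.

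Between wild-type lymphomas and normal thymocytes none of the 7 genes tested passed. Limma called 0 of 7, beside 9.58% of all probe sets higher and 10.3% lower, and 2 of 7 were under an unadjusted p of 0.05, beside 31.2% of all probe sets. These were Gimap1, at -1.18 (SE 0.39, adjusted p = 0.0746), and Gimap6, at -0.89 (SE 0.35, adjusted p = 0.131). In both genes every wild-type lymphoma lay below every normal sample. Gimap5 differed by 0.40 (SE 0.22, adjusted p = 0.286), with all wild-type lymphomas above all normal samples. Gimap8, Gimap9, Gimap3 and Gimap4 differed by 0.06, -0.13, 0.17 and 0.60, with adjusted p-values from 0.751 to 1. Gimap7, which these tumors helped to choose, differed by 0.28 and has no test. Without the first Dnmt3b-deficient lymphoma in the fit, 3 of the 7 passed, namely Gimap1 (adjusted p = 0.00533), Gimap5 (adjusted p = 0.0103) and Gimap6 (adjusted p = 0.0463). The share of all probe sets called in that fit is not given here, so nothing is read from this count.

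In Dnmt3b-deficient lymphomas 4 of the 7 genes tested fell below normal thymocytes and none rose. The background was 10.5% of all probe sets called lower and 9.7% called higher, and 30.3% were under an unadjusted p of 0.05. Gimap6 fell by 1.90 (SE 0.35, adjusted p = 0.00839) and Gimap8 by 0.93 (SE 0.18, adjusted p = 0.00971). Gimap1 fell by 1.68 (SE 0.39, adjusted p = 0.02) and Gimap9 by 0.75 (SE 0.18, adjusted p = 0.024). In these 4 genes all Dnmt3b-deficient samples lay below all normal ones, a description without a share over all probe sets. Gimap3, Gimap4 and Gimap5 differed by -0.59, -0.35 and -0.15, with adjusted p-values from 0.439 to 0.959, and their groups overlapped. Gimap7 differed by -1.22 without overlap and has no test. The median over the 8 genes was -0.84, and 8 of 8 were negative. The tumors of this group are those in which the family was chosen, so that the direction is not independent support. They differ from normal thymocytes in MYC, in Dnmt3b, in stage, in the time of harvest and perhaps in sorting, which cannot be told apart. Gimap6 and Gimap8 kept their calls with any single sample left out, while Gimap1 lost its call without any one normal sample (adjusted p from 0.0521 to 0.0634). Gimap9 lost it without normal sample 1 or 3 (adjusted p = 0.0686 and 0.0748) and without tumor 1 or 3 (adjusted p = 0.0504 and 0.0681). In a fit of only these groups none of the 4 passed, with adjusted p-values from 0.0512 for Gimap6 to 0.108 for Gimap9.

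Between the pre-tumor and tumor stage of the Dnmt3b-deficient genotype, no GIMAP gene passed. The pre-tumor cells were sorted for EGFP and the tumors were not, so stage and sorting cannot be told apart here. Limma called 0 of 7, and over all probe sets it called 0.0311% higher and 0.038% lower. At an unadjusted p under 0.05 there were 3 of 7, beside 9.43% of all probe sets. They were Gimap3, which differed by -1.35 (SE 0.46, adjusted p = 0.416), Gimap6, by -1.25 (SE 0.40, adjusted p = 0.381), and Gimap8, by -0.66 (SE 0.20, adjusted p = 0.364). In these 3 genes, and also in Gimap4 and Gimap7, every tumor lay below every pre-tumor sample. The margin was narrow for Gimap4 (8.94 against 8.95), and the share of all probe sets that separate so was not counted. Gimap4, Gimap9, Gimap1 and Gimap5 differed by -0.98, -0.39, -0.39 and -0.33, with adjusted p-values from 0.615 to 0.928. Gimap7 differed by -0.70 and has no test. All 8 differences were below 0, with a median of -0.68, and without the first tumor 7 were, with a median of -0.41. This comparison, those of both lymphoma groups with normal thymocytes and the pre-tumor one share samples, so their values are set side by side and not counted as separate evidence.

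**Figure D3:**
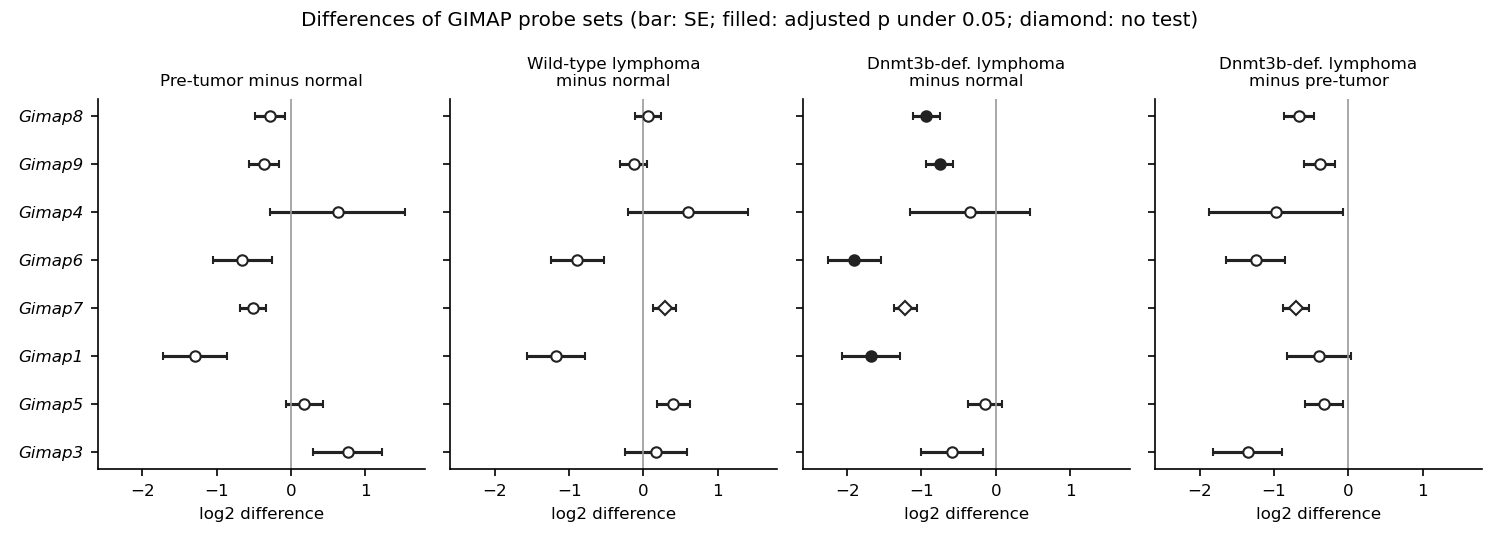
Log2 differences of the 8 GIMAP genes in the 4 tested comparisons, with bars of 1 SE, filled circles for an adjusted p under 0.05 and diamonds where no test was made. The only filled circles are those of Gimap8, Gimap9, Gimap6 and Gimap1 for Dnmt3b-deficient lymphomas against normal thymocytes.

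The profiles of the 8 genes over the 11 samples differed in likeness from pair to pair. By the root mean square distance between centred log2 profiles, Gimap8 and Gimap9 were closest (0.31), followed by Gimap5 and Gimap9 (0.312) and Gimap7 and Gimap8 (0.366). Gimap1 and Gimap4 were farthest apart (1.045). All pairs share the same arrays, and the measure grows with the spread within groups, which was largest for Gimap4. Pearson's r was positive for 28 of 28 pairs, from 0.228 for Gimap1 and Gimap4 to 0.898 for Gimap6 and Gimap9, followed by 0.841 for Gimap7 and Gimap9. The first Dnmt3b-deficient replicate, the lowest of the 11 samples for 7 of the 8 genes, enters every pair. The share of positive r over all pairs of probe sets was not counted, so nothing is read from this count.

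The family was set beside a list of proteins that GIMAP proteins are known to bind or act with, and beside lists of T cell stage. The partner list held 6 probe sets of 5 genes, namely Bcl2 and Bcl2l1, whose proteins block cell death, Mcl1, another such protein, Bcl2l11, which promotes death, and Gabarapl2, the autophagy protein that binds Gimap6. Below normal thymocytes, 5 of 6 fell in pre-tumor thymocytes, 6 of 6 in wild-type lymphomas and 5 of 6 in Dnmt3b-deficient lymphomas, and none rose, beside 9.88%, 10.3% and 10.5% of all probe sets called lower. Gabarapl2, on the brighter of its 2 probe sets, differed by -1.22, -1.13 and -1.55 in these 3 comparisons (adjusted p = 0.00111, 0.000531 and 0.000142). Bcl2l1 differed by -2.78, -3.90 and -3.85 (adjusted p = 0.00111, 0.000216 and 0.000112), and Bcl2 by -0.53, -0.97 and -1.46 (adjusted p = 0.0493, 0.00319 and 0.000673). The member without a call in 2 of the comparisons was Bcl2l11.

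Markers of T cell stage were read in the same comparisons, with those same shares of all probe sets as background. Of 9 genes of double-positive thymocytes, the stage that carries both CD4 and CD8, 5 fell in pre-tumor thymocytes, 8 in wild-type and 7 in Dnmt3b-deficient lymphomas against normal. The medians were -1.90, -3.83 and -3.46. Of 11 genes of maturing and recirculating T cells, in which GIMAP levels are known to be high, 1, 3 and 3 fell and none rose, and the first of these counts is near the background. The medians were 0.01, -1.02 and -0.91. Bcl11b, a transcription factor of T cell commitment, fell in all 3 (-1.33, -1.82 and -1.78), and Ccr7, a homing receptor, and Ets1, a transcription factor, fell in both lymphoma groups (-1.78 and -1.47, and -1.16 and -1.27). Other members lay above normal without passing. In pre-tumor thymocytes 6 of 11 did, among them S1pr1, a receptor for exit from the thymus (1.12, adjusted p = 0.186), and Il7r, the interleukin-7 receptor (1.01, adjusted p = 0.423). In Dnmt3b-deficient lymphomas 4 of 11 did, among them Il7r (1.15, adjusted p = 0.307), and in wild-type lymphomas 1 of 11. Of the 8 T-lineage genes 4, 7 and 7 fell, with medians of -1.08, -1.17 and -1.46. None of these lists had a call between the pre-tumor and tumor stages, where limma called 0.0311% of all probe sets higher and 0.038% lower. Absence of a call says little there. All 9 double-positive genes were lower in the tumors (median -1.76), and so were 8 of 11 maturing (-0.56) and 8 of 8 T-lineage genes (-0.44). At an unadjusted limma p under 0.05 were 4 of 9, 2 of 11 and 3 of 8, beside 9.43% of all probe sets. The GIMAP mean was 7.15, 7.04 and 7.20 in normal thymocytes, 6.93 and 6.95 in pre-tumor thymocytes, 7.13, 7.23 and 6.78 in wild-type lymphomas and 5.56, 6.58 and 6.41 in Dnmt3b-deficient lymphomas. Wild-type lymphomas therefore overlapped with normal thymocytes in the GIMAP mean, while their T-lineage and double-positive means lay below all normal samples. The part of stage or cell mixture in the GIMAP values was not tested.

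**Figure D4:**
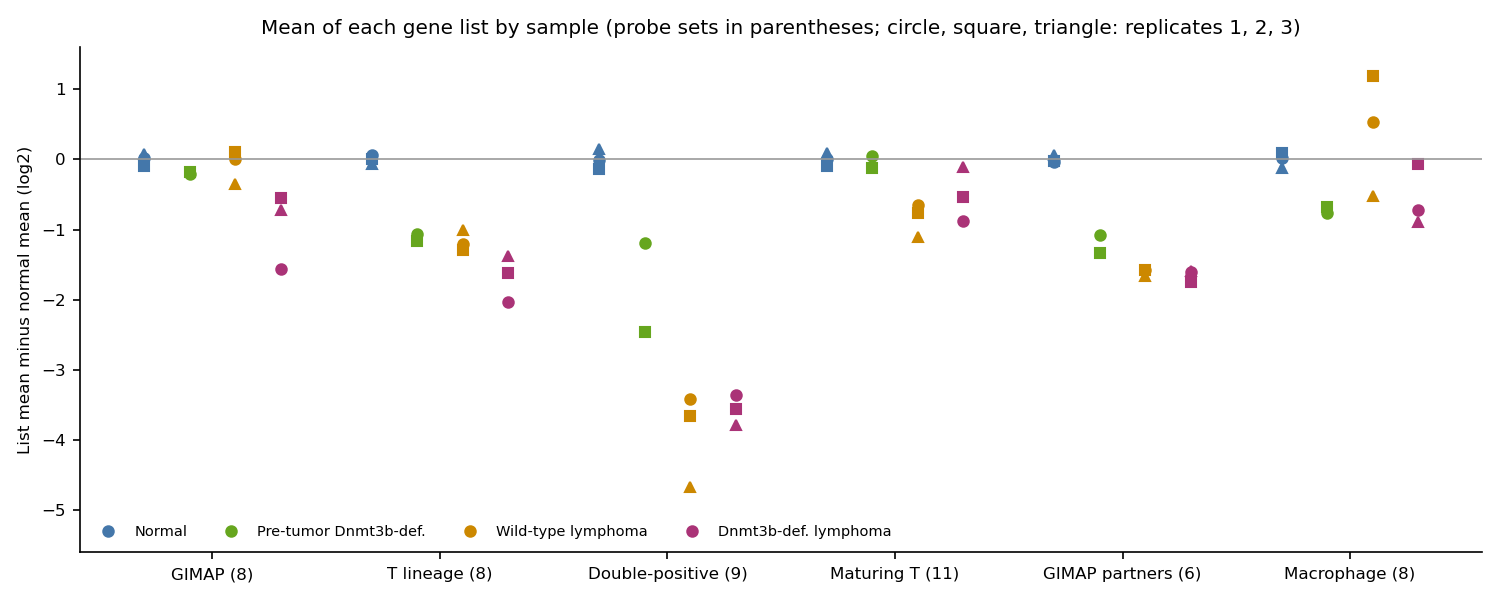
Mean log2 signal of the GIMAP genes and 5 other lists in every sample, as the difference from the mean of normal thymocytes, with the number of probe sets in parentheses and circles, squares and triangles for replicates 1, 2 and 3. The 3 Dnmt3b-deficient lymphomas are the lowest samples in the GIMAP list and also in the T-lineage list. The double-positive list separates both lymphoma groups from normal and from pre-tumor thymocytes.

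The genes most like Gimap7 were chosen by the smallest distance between centred profiles over the 11 samples, among 21781 probe sets. They were Plgrkt, a plasminogen receptor (0.271), Cflar, which blocks caspase-8 activation at death receptors (0.289), Dtx3 (0.291), Pigp, a subunit of the first enzyme of GPI anchor synthesis (0.308), and Atf7ip, a partner of the histone methyltransferase SETDB1 (0.322). Their group means were likewise highest in wild-type lymphomas for 4 of the 5, Cflar being at 6.99 in normal thymocytes against 6.66, and lowest in Dnmt3b-deficient lymphomas for all 5. Closest to the mean of the 8 GIMAP genes were Rassf2 (0.18), Atf7ip (0.191), Cflar (0.198), Fbxo28 (0.208) and Klhl7 (0.21). Ranked by Pearson correlation instead, 3 of the 5 nearest to Gimap7 and 1 of the 5 nearest to the family mean stayed in the list. The latter was Cflar, by another of its 3 probe sets, so that 0 of the 5 probe sets stayed. All these profiles come from the same 11 arrays, and likeness is a description.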

How the data were processed

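Thymus RNA (300 ng per sample, per the labels' protocols) was measured on 11 Affymetrix whole-transcript arrays. The authors deposited log2 values, for which the submitters' processing notes list Partek and RMA, with no version. The genome build was not stated. Of 35512 probe sets, 6573 with low ID numbers and no gene were left out, leaving 28939 (21789 with a single symbol, 5529 without any and 1621 with more, left unnamed). Groups come from the sample titles, and the labels call their members biological replicates. With limma 3.58.1 (R 4.3.3), lmFit estimated for each probe set a mean for each of the 4 groups and 1 spread shared by these groups. Then eBayes, without a trend, drew the spreads of the probe sets towards a common value. It did so weakly, with 0.46 prior against 7 residual degrees of freedom. Calls need a Benjamini-Hochberg adjusted p under 0.05 over all 28939 probe sets. The scripts were tested on simulated data. Arrays have no read depth, and their number limits the precision. The members and lists were chosen with earlier results of these data known. Named are all 8 GIMAP genes, 5 neighbours on each side, up to 4 called genes of a list, and the 5 most alike genes. Same-numbered replicates of different groups deviated with r from -0.331 to 0.322 over 15 pairs, 3 of them above 0.1. Pairs with different numbers ran from -0.322 to 0.331. The 2 pre-tumor samples deviate from their own mean by opposite amounts, so each r with the first returns with the opposite sign for the second. Both ends of both ranges are such pairs, so nothing is read from their likeness. Alternatives changed scaling, filters, the fit and the samples. Some genes of the lists are not reported here.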

Additional observations from a re-analysis of the deposited data

How the results depend on the processing

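Dnmt3b-deficient lymphomas against normal thymocytes gave 4 calls, 2 to 4 when a sample was left out, 3 with the replicate number as a block, 2 with a fold of at least 2 and 0 in a fit of only these groups. The block lost Gimap9 (adjusted p = 0.0501) and changed no other call among GIMAP genes. Pre-tumor against normal thymocytes gave 0 calls, but 2 with arrays centred on their medians, 1 without probe sets at the floor, 2 without dim probe sets, 2 in a fit of only these groups and 0 to 2 when a sample was left out. Wild-type lymphomas against normal gave 0 calls, but 1, 1, 2 and 3 under those settings and 0 to 3 when a sample was left out. The lone pre-tumor sample left by such a fit is assumed to vary like the other groups. Centring moved the median of all probe sets in the pre-tumor comparison from -0.02 to -0.12. Lymphoma groups did not overlap for 4 GIMAP genes, and for 4 to 6 when a sample was left out. The shares of all probe sets called, or without overlap, under each alternative are not given here. Nothing is therefore read from changes in these counts. No called value changed sign. Uncalled values that did were Gimap1 against pre-tumor (0.10), Gimap4 (0.31) and Gimap5 (0.15) against normal, all without the first Dnmt3b-deficient lymphoma, and, for wild-type lymphomas against normal, Gimap3 without wild-type sample 2 (-0.15) and Gimap8 without normal sample 1 or 2 (-0.04). The causes were not tested. The lists other than GIMAP gave 80 calls in all, and 62 to 97 under the alternatives. The number of arrays limits the precision. The genes of the family are related in sequence, and how specific their probes are to each gene was not tested.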
